A study of Mus musculus with 6 samples.

Results

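Pericytes of the aged mouse lung were taken from single-cell transcriptomes as the barcodes that held UMIs of pericyte genes and none of endothelial, immune or epithelial genes. Each had at least 500 genes, at least 1000 UMIs (counted transcript molecules) and at most 15% mitochondrial UMIs, with at least 1 UMI of Pdgfrb, at least 1 of Cspg4, at least 2 of Cox4i2 and Higd1b together, and 0 of Cdh5, Ptprc and Epcam. This rule gave 510 cells of the 94392 deposited barcodes, of which 88616 passed the filters on genes, UMIs and mitochondrial share. The 3 libraries labelled p16-DTR held 47, 62 and 54 of these cells, and the 3 control libraries held 101, 120 and 126. All 6 libraries came from lungs of C57BL/6 males of 21 months. The labels number them as separate samples of a mouse's lung; beyond that nothing says that they are separate animals, and p-values measure the spread between these samples. The p16-DTR mice were p16-CreERT2/R26-LSL-DTR: tamoxifen activates a Cre recombinase made where p16 (the product of Cdkn2a) is expressed, and the Cre opens a diphtheria toxin receptor cassette at the Rosa26 locus. The control mice were p16-CreERT2, so both groups carried the Cre and both received tamoxifen for 5 days and, after 2 weeks, diphtheria toxin for 5 days, with 2 weeks of recovery before collection. The model therefore bears on cells in which the p16 promoter drove enough Cre, and no untreated or young mouse is among the samples. For each library 20000 cells without surface CD45 and 9000 cells with it were sorted and pooled, so numbers of cells are relative to other cells on the same side of the sort.

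Pericytes are the mural cells that wrap capillaries, share a basement membrane with the endothelium and extend processes along it. Endothelial PDGF-B acting on the receptor Pdgfrb recruits and keeps them, Notch3 signalling supports their identity, and they in turn secrete angiopoietin 1 and basement membrane proteins. In the lung they are known for the oxygen-linked cytochrome c oxidase subunit Cox4i2 and the mitochondrial protein Higd1b and for low contractile protein compared with vascular smooth muscle.

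The deposited libraries held 13482 to 17332 barcodes each. The gated cells were deep, with a median of 17503.5 UMIs per cell, 18197 in the p16-DTR group and 16989 in the control group. Of the 510 barcodes, 14 also occurred in another library, and 5 had more than 3 times their library's median UMIs. No doublet caller was run. The conditions on Cdh5, Ptprc and Epcam took out 194 of the 704 barcodes that met the positive conditions, 140 of them for a Cdh5 UMI, 76 for a Ptprc UMI and 7 for an Epcam UMI.

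The cells carried the defining markers of the label. Cox4i2 had a median of 29 UMIs per cell, Pdgfrb 21, Higd1b 13 and Cspg4 (the NG2 proteoglycan) 6, all of which the rule used. Trpc6, a cation channel that the rule did not use, was found in 94.9% of the cells at a median of 46 UMIs. Levels are given below as CPM, the usual scaling of a gene's UMI counts to a fixed total, computed over all UMIs of a library's gated cells, and because the 3′ end of each transcript is counted once they do not scale with transcript length. Trpc6 stood at 2731 CPM in the pericytes pooled over libraries, against 32.5 CPM in smooth muscle cells (194 cells gated on Myh11, Cnn1 and Acta2 without Cox4i2 or Higd1b) and 0.312 CPM in alveolar fibroblasts (14955 cells gated on Pdgfra, Tcf21 and Npnt or Col13a1).

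The genes that set the pericytes furthest apart from the 5 other gated classes (smooth muscle, alveolar fibroblast, general capillary endothelium, neutrophil and B cell) are given as a description, since the cells were chosen on measured values. Adcy8, an adenylyl cyclase that makes cyclic AMP, led at 3060 CPM against 0.756 in smooth muscle, the next class. Clstn2, a calsyntenin membrane protein, followed at 1599 CPM. Cox4i2 stood at 1624 CPM and Higd1b at 736. Vtn, which encodes the adhesion protein vitronectin, was at 331 CPM, Agtr1a, an angiotensin II receptor, at 350 CPM and Gap43, a growth-cone protein known from neurons, at 380 CPM. Lipg, the endothelial lipase, stood at 1040 CPM against 9.52 in alveolar fibroblasts. Spp1, the secreted phosphoprotein osteopontin better known from macrophages and bone, reached 5417 CPM in the pericytes and 15.8 in neutrophils, the next class. Spp1 was uneven between cells: 384 of the 510 held a Spp1 UMI and 353 held 10 or more. The remaining leading genes were Olfr550, Gm21798, Fam162b, AC138306.1, Unc5d, Pcdh18, Lrrc4c, Wfdc8, Gm42906, 4833422C13Rik and C030034L19Rik. Of these, Gm42906 at 377 CPM and 4833422C13Rik at 172 CPM are a predicted gene model and a transcript annotated as antisense. Gm21798, at 51.5 CPM, lies on chromosome 15 (64817694 to 64937996, plus strand) and overlaps Adcy8 on the other strand. How the counting treated overlapping genes is not given in the sources used here.

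**Figure D1:**
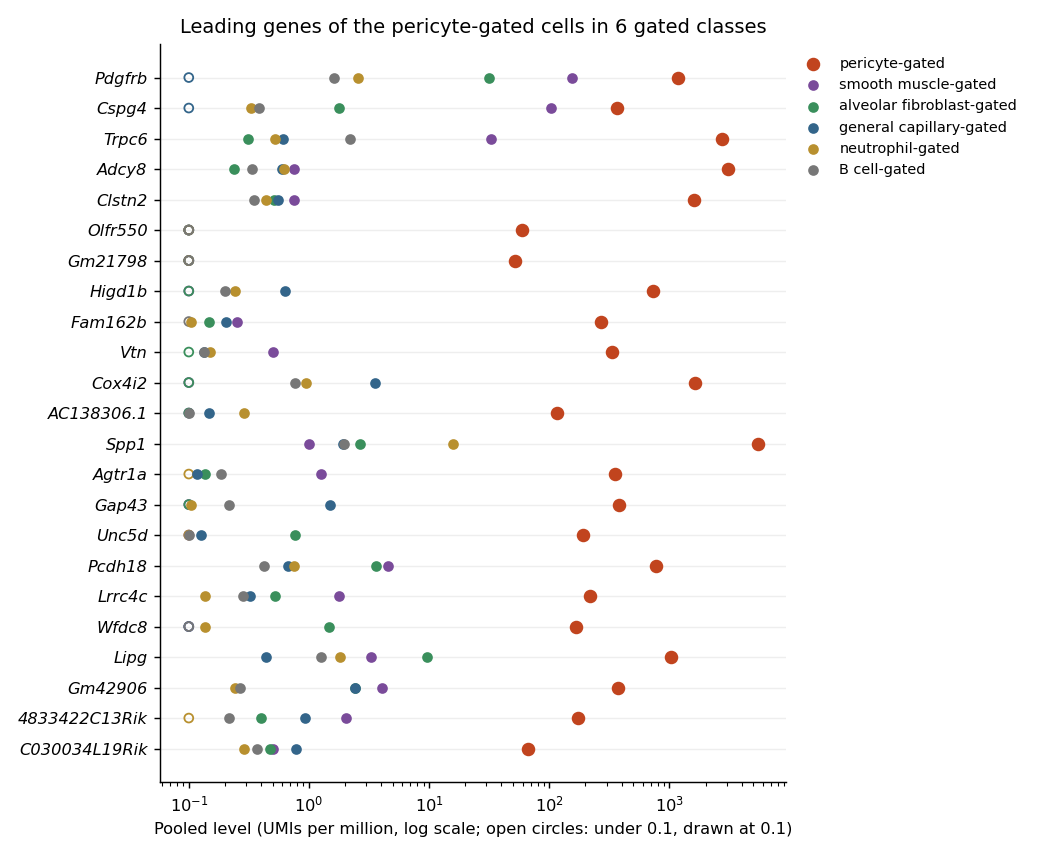
Level of Pdgfrb and Cspg4, which the rule used, of Trpc6, which it did not, and of the 20 leading genes (rows) in 6 gated classes, as CPM pooled over 6 libraries on a log axis; open circles are values under 0.1 drawn at 0.1. Pericyte-gated cells (large points) lie furthest right in every row, with Spp1 highest at 5417.

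In the GRCm38 annotation Adcy8 lies on chromosome 15 (64697084 to 64922296, minus strand), Clstn2 on chromosome 9 (97444395 to 98033181, minus strand), Cox4i2 on chromosome 2 (152754173 to 152765037, plus strand), Higd1b on chromosome 11 (102835849 to 102838040, plus strand) and Trpc6 on chromosome 9 (8544142 to 8680741, plus strand). All are protein-coding genes.

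Rgs5, a regulator of G-protein signalling widely used as a pericyte marker in other organs, was nearly absent from these cells. Only 23 of the 510 held a Rgs5 UMI, and 8 held 10 or more. The p16-DTR libraries had 64, 0 and 183 Rgs5 UMIs and the control libraries 0, 3 and 283, so 3 libraries were at or near 0. In p16-DTR replicate 1 all 64 UMIs were in 2 cells, and in control replicate 3 a single cell held 188. Rgs5 was looked at in this way after its values were seen. Kcnj8 and Abcc9, the subunits of an ATP-sensitive potassium channel that also mark pericytes elsewhere, had a UMI in 26.3% and 30.6% of the cells.

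The cells ranged from typical pericytes to cells with a contractile programme. Where cells were thinned to 5000 UMIs, which left out 18 shallower cells, 349 had no UMI of Acta2 (smooth muscle actin), 76 had 1 to 9 and 67 had 10 or more. Trpc6 had a median of 15 UMIs per 5000 in the cells without Acta2 and 4 in those with 10 or more, and Adcy8 a median of 20 and 0. Spp1 went from 32 to 0 and Clstn2 from 9 to 0 across the same ranges, while Myh11, the smooth muscle myosin heavy chain, went from 2 to 18 and Tagln from 0 to 20. Notch3 had a median of 6 in both. The ranges were cut from a count per cell, with 38 cells at 5 to 19 Acta2 UMIs, and whether the cells with most Acta2 are a separate cell type was not tested.

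**Figure D2:**
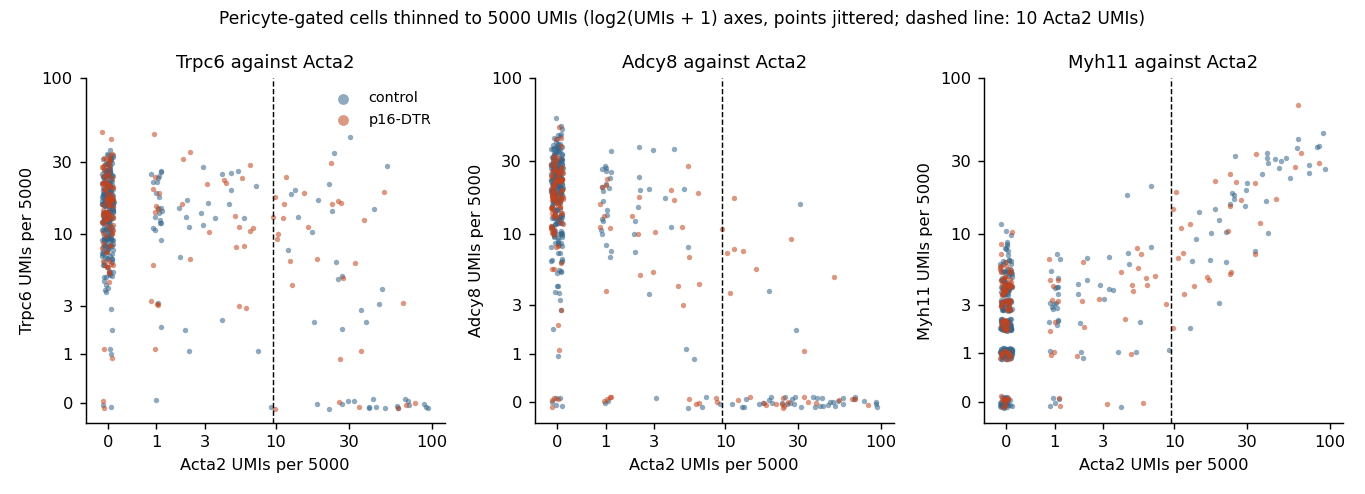
Trpc6, Adcy8 and Myh11 (y axes) against Acta2 (x axes) in 492 pericyte-gated cells thinned to 5000 UMIs, on log2(UMIs + 1) axes; each point is a cell, coloured by group and jittered, and the dashed line marks 10 Acta2 UMIs. The 67 cells to the right of it had a median of 18 Myh11 UMIs and 0 of Adcy8, and both groups are on both sides.

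The rule's threshold on Cox4i2 and Higd1b lay within this spread. Just outside it, 54 cells with 1 UMI of the pair had 6356 CPM of Acta2 and 140 CPM of Trpc6. Just inside, 26 cells with 2 or 3 UMIs had 7363 CPM of Acta2 and 212 of Trpc6, and 43 cells with 4 to 9 UMIs had 7181 of Acta2 and 924 of Trpc6. The 364 cells with 30 or more UMIs had 254 CPM of Acta2 and 3102 of Trpc6. The lowest cells inside the threshold were thus closer in Acta2 and Trpc6 to the cells just outside it than to most of the pericytes.

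The share of cells with 10 or more Acta2 UMIs was 8.51%, 23.7% and 17.0% in the p16-DTR libraries and 10.2%, 9.91% and 15.3% in the control libraries. The groups overlapped (16.4% ± 7.63 against 11.8% ± 3.04, SD, n = 3 each; exact two-sided permutation test p = 0.5, where 3 against 3 cannot go below 0.1).

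Markers of other cell types were measured in the same sums, and 14 of their 18 lists held a gene abundant enough to be tested. Of the 46 genes tested in these 14 lists 0 passed edgeR's test between groups, where 0.0199% of all genes did. At an unadjusted p under 0.05, 1 was higher and 4 were lower, against 3.45% and 3.61% of all genes. DESeq2 called 2 of the 46, where it called 14 of all 10043 genes. The 2 were the adventitial fibroblast markers Dcn and Serpinf1, both lower in the p16-DTR group and named after their values were seen. No gene was tested of the mesothelium, lymphatic endothelium, T and NK cell and platelet lists. The 8 general capillary markers summed to 29.5 to 50.4 CPM in the p16-DTR libraries and 34.2 to 42.8 CPM in the control libraries, with Cdh5 at 0 by the rule. The 8 smooth muscle markers summed to 1532 to 2992 against 1991 to 2735 CPM, and the 8 aerocyte markers, among them Tbx2 at 909 against 854 CPM, to 1443 to 1793 against 1521 to 1611 CPM. The 6 peribronchial fibroblast markers summed to 1732 to 2283 CPM in the p16-DTR libraries and 1606 to 1701 CPM in the control libraries, without overlap, led by Ltbp2 at 1094 ± 55.6 against 944 ± 49.1 CPM. The 8 adventitial fibroblast markers summed to 53.5 to 203 CPM against 215 to 992 CPM, also without overlap. Of their Dcn UMIs, a single cell in each control library held 1227 of 1452, 185 of 200 and 110 of 145. Whether the list separates the groups without Dcn was not tested. The groups did not overlap either in arterial and venous endothelial markers (41.4 to 66.0 against 68.0 to 75.6 CPM) or in macrophage and monocyte markers (41.4 to 43.1 against 31.4 to 40.7 CPM). Msln and Lrrn4 (mesothelium), Bmx (artery), Marco (macrophage) and Sox10, Kcna1 and Gfra3 (Schwann cells) were at 0. The part of other cells' RNA in the results below was not tested.

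Fewer cells passed the pericyte rule in the p16-DTR libraries, and fewer pericytes cannot be told apart from fewer that reach the rule's UMIs. They made up 0.530%, 0.714% and 0.657% of the Ptprc-negative barcodes in p16-DTR replicates 1 to 3 and 0.888%, 1.41% and 1.26% in control replicates 1 to 3. The highest p16-DTR library was below the lowest control library. The means were 0.633% ± 0.0942 and 1.18% ± 0.267 (SD, n = 3 each), a ratio of 0.535, with an exact two-sided permutation p of 0.1, the smallest that 3 against 3 allows. The 95% Wilson intervals, which cover counting error only, ran from 0.557% to 0.914% in the highest p16-DTR library and from 0.731% to 1.08% in the lowest control library, so these 2 libraries overlapped in counting error.

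Against the endothelium that pericytes cover, the separation was wider. The p16-DTR libraries held 0.920, 1.16 and 0.993 pericytes per 100 Cdh5-positive cells and the control libraries 2.13, 2.34 and 2.31. The means were 1.02 ± 0.123 and 2.26 ± 0.111 (SD, n = 3 each), a ratio of 0.453, again with an exact permutation p of 0.1. General capillary cells moved the other way: they made up 43.7% ± 4.51 of Ptprc-negative barcodes in the p16-DTR group and 33.2% ± 7.13 in the control group (exact permutation p = 0.1, no overlap). Cdh5-positive cells were 5108 of 8874, 5343 of 8687 and 5437 of 8225 Ptprc-negative barcodes in p16-DTR replicates 1 to 3. In control replicates 1 to 3 they were 4733 of 11378, 5126 of 8530 and 5459 of 10009, so the groups overlapped in that share. A higher share of endothelium lowers the share of every other CD45-negative cell, and its part in the pericyte share was not tested.

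Smooth muscle, the other mural class, overlapped between the groups. These cells were 0.274% ± 0.0879 of Ptprc-negative barcodes in the p16-DTR group and 0.418% ± 0.0883 in the control group (SD, n = 3 each; ratio 0.655, exact permutation p = 0.2). The number of pericytes per smooth muscle cell was 2.04, 1.94 and 3.38 in the p16-DTR libraries and 2.81, 3.00 and 2.68 in the control libraries (exact permutation p = 0.4), so the groups overlapped in the balance of the mural classes. Pericytes per 100 alveolar fibroblasts were 1.96, 3.14 and 3.30 against 2.29, 6.10 and 4.88 (exact permutation p = 0.3).

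**Figure D3:**
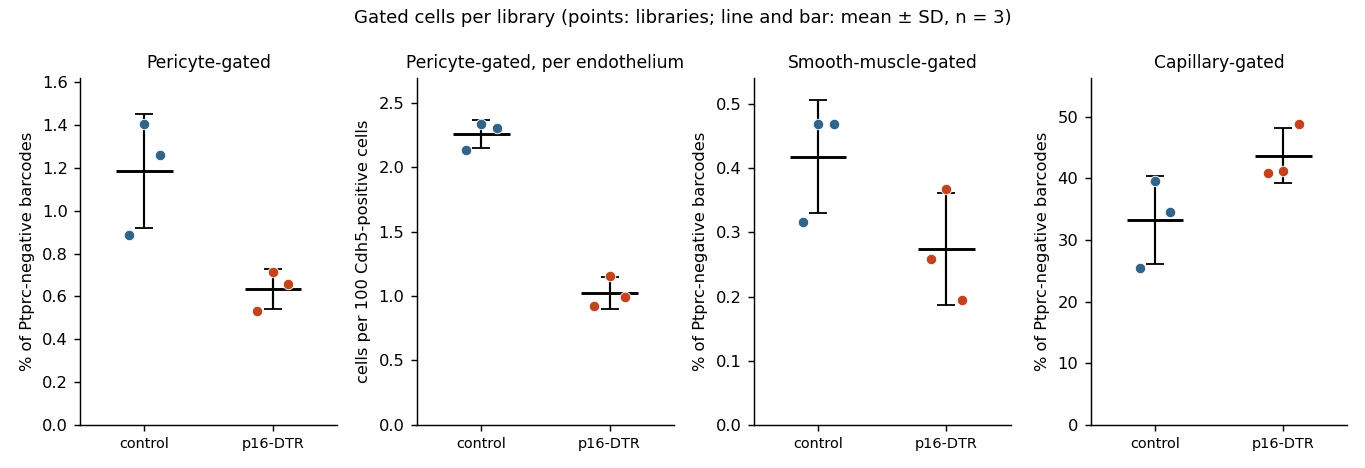
Pericyte-gated cells as a share of Ptprc-negative barcodes and per 100 Cdh5-positive cells, with smooth-muscle-gated and capillary-gated cells beside them; points are libraries, lines and bars the mean ± SD of 3 libraries a group, and each y axis starts at 0. The 3 p16-DTR points lie below the 3 control points for pericytes in both panels (0.530 to 0.714% against 0.888 to 1.41%) and above them for capillary cells, and overlap for smooth muscle.

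Cdkn2a, whose promoter drives the Cre, was at the edge of detection in the pericytes. Cdkn2a had 2, 7 and 0 UMIs in the p16-DTR libraries and 0, 0 and 7 in the control libraries, in 9 of 510 cells. After thinning to 5000 UMIs a Cdkn2a UMI was found in 3 of 159 p16-DTR pericytes and 1 of 333 control pericytes (1.84% ± 1.71 against 0.269% ± 0.466, SD, n = 3 each; exact permutation p = 0.4). The difference of 1.57 percentage points was 0.795 without p16-DTR replicate 2 (exact permutation p = 0.7) and 2.49 without p16-DTR replicate 3 (exact permutation p = 0.1, the smallest it allows). It was 1.00 with thinning to 2500 UMIs and 3.58 without thinning (exact permutation p = 0.4 for both). Without thinning the shares were 4.26%, 8.06% and 0% against 0%, 0% and 1.59%. In neutrophils, at a median depth of 10529 and 10363.5 UMIs against 18197 and 16989 in the pericytes, a Cdkn2a UMI was found in 19 of 1057 thinned p16-DTR cells and 0 of 1063 control cells (1.79% ± 0.686 against 0%). Among thinned p16-DTR and control cells, a Cdkn2a UMI was found in 0 of 63 and 0 of 117 in smooth muscle. In alveolar fibroblasts it was found in 27 of 1160 and 0 of 1174. Cdkn2a was called higher in the p16-DTR group in alveolar fibroblasts (log2 fold change 4.49, edgeR adjusted p = 0.00679) and capillary cells (3.56, edgeR adjusted p = 0.0119). The pericyte share was close to that of neutrophils, and no pericyte expression of Cdkn2a is read from it. tdTomato, listed among the features, had 0 UMIs in all 510 cells. Hbegf, whose human counterpart is the receptor of this toxin, was expressed at 428 ± 98.3 CPM in the p16-DTR group and 394 ± 45.9 CPM in the control group (log2 fold change 0.12, SE 0.16, edgeR adjusted p = 0.915), well above its 17.7 CPM in smooth muscle. Cdkn1a, the cell cycle inhibitor p21, was at 39.0, 43.1 and 145 CPM in the p16-DTR libraries and 43.6, 51.6 and 115 CPM in the control libraries, so 1 library of each group stood high.

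Few genes were called different between the groups. Of 10043 genes tested with edgeR's quasi-likelihood test on UMIs summed per library, 2 passed an adjusted p of 0.05, which is 0.0199% of the genes: Flt1 rose and Negr1 fell in the p16-DTR group. Each direction thus held 1 gene, or 0.00996%. DESeq2 called 14. A further measure is the unadjusted p, which was under 0.05 for 709 genes (7.06%), 346 higher (3.45%) and 363 lower (3.61%). The groups did not overlap in 12.9% of the genes, all 3 p16-DTR libraries being the higher ones in 6.31% and the lower ones in 6.62%. The labels give no batch.

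Flt1 encodes VEGF receptor 1, which binds VEGF-A and, in its soluble form, limits how much of it reaches the endothelium. The p16-DTR libraries had 130, 180 and 151 CPM and the control libraries 67.9, 52.5 and 66.2 CPM, without overlap. The log2 fold change was 1.31 (SE 0.16, edgeR adjusted p = 0.0481). The higher level came with more cells that held the transcript: thinned to 5000 UMIs, 29.8%, 32.2% and 32.1% of p16-DTR pericytes had a Flt1 UMI, against 17.3%, 15.3% and 15.3% of control pericytes. Flt1 is abundant in capillary endothelium, at 1630 ± 38.5 CPM in the p16-DTR group and 1612 ± 143 CPM in the control group, where it did not pass the test (log2 fold change 0.07, SE 0.08, edgeR adjusted p = 0.637). The 8 capillary markers, given above, overlapped between the groups in the pericytes, but Cdh5 was 0 by the rule and only 2 passed the filter. Whether capillary RNA adds to the Flt1 of the pericytes was not tested. Among the pericytes, Flt1 was 69.3 CPM in cells without Acta2 and 158 CPM in cells with 10 or more Acta2 UMIs. In another step, chosen after seeing the data, cells with 10 or more Acta2 UMIs before thinning were left out, which kept 411 cells. The log2 fold change of Flt1 was then 1.97 (edgeR adjusted p = 0.000939). Flt1 lies on chromosome 5 (147561604 to 147726011, minus strand) and is protein-coding.

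Negr1 encodes a cell adhesion protein of the immunoglobulin superfamily, known mainly from neurons. The p16-DTR libraries had 99.2, 79.8 and 83.8 CPM and the control libraries 162, 193 and 190 CPM. All 3 p16-DTR libraries were below the control range, with a log2 fold change of -1.05 (SE 0.13, edgeR adjusted p = 0.0481). A Negr1 UMI was found in 21.3%, 27.1% and 18.9% of thinned p16-DTR pericytes and in 31.6%, 37.8% and 39.5% of control pericytes. It was 174 CPM in pericytes without Acta2 and 8.96 CPM in those with 10 or more Acta2 UMIs. Without the cells of 10 or more Acta2 UMIs before thinning, the log2 fold change was -1.02 (edgeR adjusted p = 0.0237). Negr1 was more abundant in alveolar fibroblasts than in the pericytes, at 261 ± 26.3 CPM in the p16-DTR group and 267 ± 16.1 CPM in the control group, where it did not pass the test (log2 fold change -0.01, SE 0.08, edgeR adjusted p = 0.968). The 7 alveolar fibroblast markers came to 949 to 1259 CPM in the p16-DTR pericytes and 1132 to 1427 CPM in the control pericytes, with overlap. The adventitial fibroblast markers summed lower in the p16-DTR libraries, with most of the control Dcn UMIs in single cells, as given above. Negr1 lies on chromosome 3 (156561794 to 157316445, plus strand) and is protein-coding.

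Both calls sat close to the threshold. Neither gene passed it in any of the 6 fits that left out 1 library (adjusted p 0.0619 to 0.500 for Flt1 and 0.0590 to 0.500 for Negr1). The direction was kept in every one, which the lack of overlap between the groups made nearly certain beforehand. With no upper limit on Cdh5, Ptprc and Epcam (704 cells) the log2 fold changes were 0.84 for Flt1 and -0.92 for Negr1 (edgeR adjusted p = 0.874 and 0.628).

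Whether these effects differed from those in neighbouring classes was tested by a class-by-group term. The group effect on Flt1 in smooth muscle was lower than in pericytes by 0.90 on the log2 scale (edgeR adjusted p = 0.758) and in alveolar fibroblasts by 1.14 (adjusted p = 0.621, unadjusted 0.00126). For Negr1 the differences were 0.84 (adjusted p = 0.841) and 1.05 (adjusted p = 1.00). Neither gene could therefore be called particular to the pericytes, at a level of Flt1 of 13.7 CPM in control smooth muscle and 2.92 CPM in control fibroblasts. Over all 11425 genes, 1 gene (0.00875%) differed in effect between pericytes and smooth muscle and 0 (0.0%, edgeR) between pericytes and fibroblasts, while an unadjusted p under 0.05 was found for 7.19% and 4.54% of the genes. Tested on their own, alveolar fibroblasts had 143 called genes (0.87%), capillary cells 36 (0.22%) and smooth muscle cells 0 (0.0%, edgeR).

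**Figure D4:**
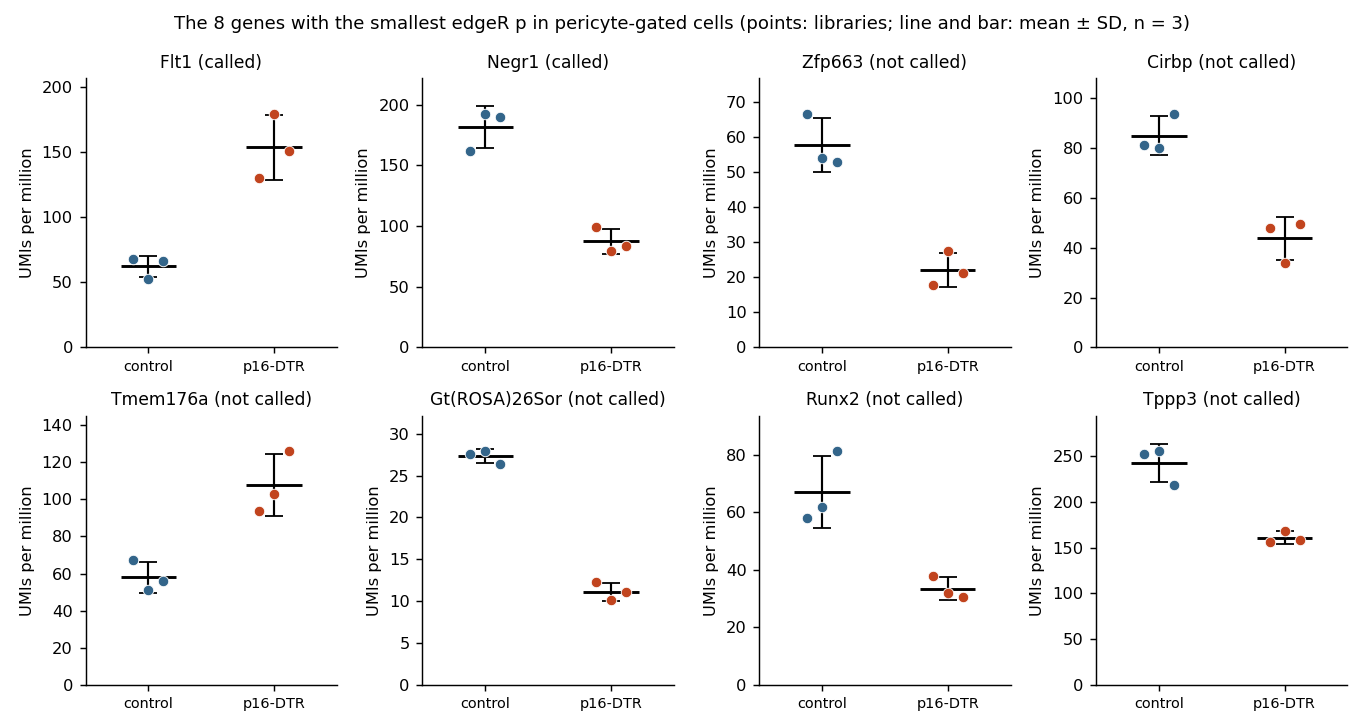
CPM of the 8 genes with the smallest edgeR p among the named genes, in pericyte-gated cells. Points are libraries, lines and bars the mean ± SD of 3 libraries a group, and each y axis starts at 0. The groups do not overlap in all 8 panels, which was also how the uncalled genes of smallest p were chosen. Only Flt1 and Negr1 passed an adjusted p of 0.05.

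The 20 genes with the next smallest p among those without overlap between the groups did not pass the test. Zfp663, a zinc finger gene with under 0.1 CPM in alveolar fibroblasts, had 17.8, 27.5 and 21.2 CPM in the p16-DTR libraries and 66.8, 54.0 and 52.8 CPM in the control libraries (log2 fold change -1.36, SE 0.20, edgeR adjusted p = 0.195). Cirbp, an RNA-binding protein induced by cold, had 48.0, 33.9 and 49.7 CPM against 81.1, 80.0 and 93.9 CPM (log2 fold change -0.96, adjusted p = 0.342). It was also lower in capillary endothelium, where it passed the test (log2 fold change -0.77, edgeR adjusted p = 0.0201). Gt(ROSA)26Sor, the transcript of the Rosa26 locus that carries the receptor cassette in the p16-DTR mice alone, had 11.1 ± 1.09 against 27.3 ± 0.813 CPM (adjusted p = 0.342). Runx2, a skeletal transcription factor, had 37.9, 32.1 and 30.4 CPM against 57.9, 61.7 and 81.4 CPM. Among genes with higher values, Timp3, an inhibitor of matrix metalloproteinases, had 1408, 1335 and 1520 CPM against 696, 994 and 968 CPM (log2 fold change 0.68, adjusted p = 0.407). Nox4, an oxidase that makes hydrogen peroxide, had 201, 262 and 174 CPM against 92.7, 133 and 123 CPM (adjusted p = 0.424). Edn3, an endothelin, had 152, 108 and 111 CPM against 64.0, 41.5 and 77.9 CPM (adjusted p = 0.433). The others were Tmem176a, Pdpk1, Kcnq1ot1, Fkbp5 and Ly6e with higher values and Tppp3, Lum, Msra, Etl4, Nasp, Serpinf1, Ddx19a and Socs3 with lower values.

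Lum, Serpinf1, Dcn and Vcan, with wide ratios between the groups, rested on very few cells. Lum had 0, 5 and 0 UMIs in the p16-DTR libraries and 43, 33 and 41 in the control libraries, of which a single cell in each control library held 34, 33 and 25. Serpinf1 had 1, 1 and 3 UMIs against 73, 39 and 22, held by 2, 1 and 1 cells of the control libraries. Dcn, chosen after its values were seen, had 6, 8 and 12 UMIs against 1452, 200 and 145, of which a single cell in each control library held 1227, 185 and 110. Vcan, chosen in the same way, had 2, 2 and 2 UMIs against 145, 44 and 25. A single cell in each control library held 141, 34 and 18 of them. Lum, Dcn and Vcan are on the interstitial matrix list, and Dcn and Serpinf1 are among the adventitial fibroblast markers that summed higher in the control libraries.

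**Figure D5:**
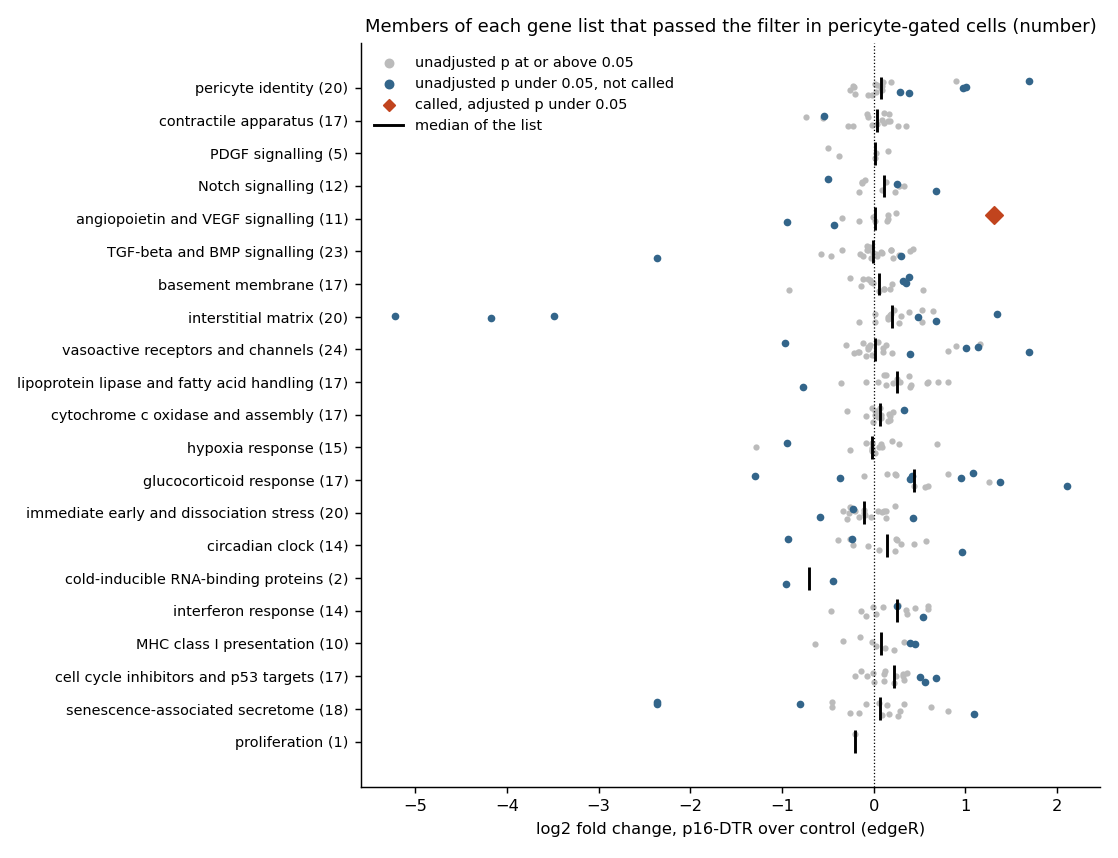
log2 fold change (p16-DTR over control, edgeR) of the members of 21 gene lists that passed the filter, 1 point a gene, with the number in brackets; black lines are list medians and the dotted line the median of all 10043 genes. Flt1, the diamond, is the only called gene in these lists, and the lowest points, in the interstitial matrix row, are Dcn, Vcan and Lum.

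Of the pericyte identity list, 16 genes were not used by the cell rule, and all 16 passed the filter. Of these 0 passed the test (0.0199% of all genes did), with a median log2 fold change of 0.09 against 0.00 over all genes. Trpc6 was at 3006, 3185 and 2430 CPM in the p16-DTR libraries and 2901, 2687 and 2459 CPM in the control libraries. Notch3 was at 1300 ± 80.3 against 1227 ± 58.7 CPM, and the nitric oxide receptor subunit Gucy1a1 at 4824 ± 689 against 5607 ± 238 CPM. At an unadjusted p under 0.05, where 3.45% of all genes were higher and 3.61% lower, 4 of the 16 (Mcam, Kcnj8, Abcc9 and Itga7) had higher values and 0 lower ones. Mcam, a cell adhesion molecule, had 679, 701 and 660 CPM against 559, 490 and 512 CPM (log2 fold change 0.39, edgeR adjusted p = 0.433). Abcc9 had 202, 51.4 and 145 CPM against 29.2, 41.0 and 50.2 CPM, and 2 cells of p16-DTR replicate 1 held 85.6% of its UMIs there. Of the Kcnj8 UMIs in that library 75.9% were in 2 cells, and a Kcnj8 UMI was found in 23.4% to 32.3% of the pericytes of the p16-DTR libraries and 22.8% to 27.8% of those of the control libraries. Mcam, Kcnj8 and Abcc9 were picked after their values were seen.

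Of the contractile list, 17 of 18 genes were tested and 0 passed, where 0.0199% of all genes did. At an unadjusted p under 0.05, 0 were higher and 1 (Synpo2) lower, against 3.45% and 3.61% of all genes. The groups did not overlap in 1 gene with higher values and 0 with lower values, against 6.31% and 6.62% of all genes. Acta2 had 480, 2193 and 1314 CPM in the p16-DTR libraries and 850, 1146 and 1619 CPM in the control libraries, a spread within groups that exceeded the difference between them (log2 fold change 0.15, SE 0.43, edgeR adjusted p = 0.967). Myh11 was at 1179 ± 356 against 1098 ± 171 CPM, Mylk, the myosin light chain kinase, at 1140 ± 107 against 1053 ± 138 CPM and Cald1 at 1646 ± 126 against 1552 ± 70.3 CPM.

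Of the 11 angiopoietin and VEGF genes tested, which tie pericytes to the endothelium, 1 passed the test, Flt1, where 0.0199% of all genes did. At an unadjusted p under 0.05, 1 of the 11 was higher and 2 were lower, against 3.45% and 3.61% of all genes, and the groups did not overlap in the same numbers (6.31% and 6.62% of all genes). Angpt1, the ligand that pericytes make for endothelial Tie2, was at 1355 ± 139 CPM in the p16-DTR group and 1362 ± 68.3 CPM in the control group (SE of the log2 fold change 0.11). Angpt2, which competes with it, had 173, 171 and 129 CPM against 216, 179 and 242 CPM, without overlap (log2 fold change -0.43, SE 0.15, adjusted p = 0.572). Vegfa was low, at 22.8 CPM against 43.8 CPM on average, also without overlap (adjusted p = 0.571). Pdgfrb, which the rule used, was at 1206 ± 62.2 against 1188 ± 86.8 CPM. Of the 12 Notch genes tested 0 passed. The groups did not overlap in 2 with higher values and 2 with lower values, where 6.31% and 6.62% of all genes did so. The target genes Heyl and Hey2 were at 261 ± 12.6 against 219 ± 19.5 CPM and 33.4 ± 1.94 against 20.9 ± 1.93 CPM. The receptor Notch2 was at 319 ± 15.4 against 350.0 ± 9.40 CPM and the coactivator Maml1 at 30.4 ± 3.65 against 43.1 ± 4.76 CPM. Hey2 and Maml1 were picked after their values were seen. Of 23 TGF-beta and BMP genes 0 passed, with a median log2 fold change of -0.01; Tgfbr3 was at 463 ± 82.4 against 408 ± 36.6 CPM.

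Of 17 basement membrane genes 0 passed, and 3 were higher and 0 lower at an unadjusted p under 0.05 (3.45% and 3.61% of all genes). Col4a1 and Col4a2, which form the main type IV collagen, had 2109, 2401 and 2258 against 1696, 1838 and 1648 CPM, and 1628, 1567 and 1628 against 1268, 1302 and 1209 CPM. Sparc, a collagen-binding protein of the same matrix, had 3163, 3114 and 3603 against 2707, 2687 and 2499 CPM. The groups did not overlap in these 3 genes, as in 6.31% of all genes with higher values (log2 fold changes 0.39, 0.35 and 0.32, edgeR adjusted p = 0.433, 0.433 and 0.535). Lama4, the laminin chain of vascular basement membranes, was at 833 ± 124 against 804 ± 88.0 CPM. Of 20 interstitial matrix genes 0 passed, 3 were higher and 3 lower at an unadjusted p under 0.05 (3.45% and 3.61% of all genes); Postn, which encodes periostin, was at 3186 ± 536 against 3152 ± 161 CPM.

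Of 24 vasoactive receptors and channels 0 passed, and at an unadjusted p under 0.05 4 were higher (Kcnj8, Abcc9, Ano1 and Rgs4) and 1 lower (Adra1b), against 3.45% and 3.61% of all genes. Prkg1, the cyclic GMP-dependent kinase, was at 7015 ± 423 against 7921 ± 70.8 CPM, without overlap (log2 fold change -0.17, SE 0.09, edgeR adjusted p = 0.764), and Pde5a, which breaks down cyclic GMP, at 4773 ± 818 against 5331 ± 205 CPM. Agtr1a was at 375 ± 117 against 340 ± 42.3 CPM. Of the oxygen-linked genes, Cox4i2, which the rule used, was at 1691 ± 202 against 1605 ± 159 CPM, Ndufa4l2 at 793 ± 89.5 against 801 ± 42.6 CPM and Epas1, which encodes HIF-2 alpha, at 1015 ± 24.2 against 1025 ± 47.8 CPM. Of 17 genes of cytochrome c oxidase and its assembly and 15 of the hypoxia response, 0 passed in each, where 0.0199% of all genes did. At an unadjusted p under 0.05, 1 of the 17 was higher and 0 lower, and of the 15, 0 were higher and 1 lower.

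The glucocorticoid response list had the highest median log2 fold change of the 21 lists, 0.44 against 0.00 over all genes, with 0 of 17 genes passing the test. At an unadjusted p under 0.05, 6 were higher and 2 lower, against 3.45% and 3.61% of all genes. Fkbp5, a cochaperone of the glucocorticoid receptor and one of its textbook targets, had 349, 161 and 458 CPM in the p16-DTR libraries and 29.8, 103 and 89.6 CPM in the control libraries. All 3 p16-DTR values lay above the control range, but the spread was wide (log2 fold change 2.11, SE 0.43, edgeR adjusted p = 0.407). Control replicate 1 had the lowest Fkbp5 of the 6 libraries, with a UMI in 20.8% of its pericytes. The same order was seen in capillary endothelium, at 97.3, 53.1 and 151 against 15.4, 40.6 and 33.9 CPM (adjusted p = 0.0828), and in alveolar fibroblasts (log2 fold change 1.45, adjusted p = 0.103). In smooth muscle the groups overlapped, at 130, 124 and 195 against 23.9, 155 and 95.5 CPM (log2 fold change 0.69, edgeR adjusted p = 0.914), and the effect was lower than in pericytes by 1.28 on the log2 scale (adjusted p = 0.332, unadjusted 0.00032). Tsc22d3, the leucine zipper GILZ, had 196, 205 and 388 against 85.5, 189 and 132 CPM in the pericytes, and Zbtb16, a zinc finger target, 405, 449 and 687 against 67.9, 368 and 290 CPM. Mt2, a metallothionein on the same list, had lower values, 11.8 ± 1.36 against 29.2 ± 14.5 CPM. Tsc22d3, Zbtb16 and Mt2 were picked after their values were seen. The lowest median of the 21 lists, -0.70, was that of the 2 cold-inducible RNA-binding proteins, Cirbp and Rbm3. Of these 0 passed the test and 2 were lower at an unadjusted p under 0.05, against 3.61% of all genes. A median of 2 genes reaches an extreme rank more easily than that of a longer list. The lists were chosen with earlier results of these data known, so the highest and lowest ranks are no independent support.

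With 0.0199% of all genes called, a count of 0 is the usual one for a short list, and it was also that of the lists tied to senescence. Of 17 cell cycle inhibitors and p53 targets 0 passed, and 3 were higher and 0 lower at an unadjusted p under 0.05 (3.45% and 3.61% of all genes); Cdkn1c was at 566 ± 163 against 454 ± 47.8 CPM and Btg2 at 588 ± 255 against 543 ± 64.9 CPM. Of 18 genes of the senescence-associated secretome 0 passed, and 1 was higher and 3 lower at an unadjusted p under 0.05 (3.45% and 3.61% of all genes); Igfbp7 was at 599 ± 259 against 390 ± 103 CPM and Hgf at 303 ± 60.2 against 322 ± 12.3 CPM. Of the 12 proliferation genes 11 were below the filter. In the interferon list 0 of 14 tested genes passed, in MHC class I presentation 0 of 10, in immediate early and dissociation stress 0 of 20, in circadian clock 0 of 14, in PDGF signalling 0 of 5 and in lipoprotein lipase and fatty acid handling 0 of 17. At an unadjusted p under 0.05 (3.45% of all genes higher, 3.61% lower), 2 interferon and 2 MHC class I genes were higher, 0 lower. Of the stress and the clock list 1 gene each was higher and 2 lower. Of the fatty acid list 0 were higher and 1 lower, and of PDGF signalling 0 either way. The 18 clock genes summed to 1689 to 1830 CPM in the p16-DTR libraries and 1900 to 2003 CPM in the control libraries. Fos was at 1117 ± 392 against 1021 ± 278 CPM. Lpl, the lipoprotein lipase, had 3.35, 25.7 and 21.2 CPM in the p16-DTR libraries and 19.9, 9.64 and 10.4 CPM in the control libraries (log2 fold change 0.39, SE 0.53, edgeR adjusted p = 0.915), and its direction turned without p16-DTR replicate 2.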

How the data were processed

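Single-cell libraries (10x GEM-X 3′ v4, per the labels' protocols) of 6 mouse lung samples were deposited as raw UMI counts per gene and barcode, written by the authors with Cell Ranger 8.0.1 (per the file headers) on mm10 (per the submitters' processing notes); neither the gene annotation's release nor how barcodes were called as cells is given in the sources used here. Of 31054 features, 30934 matched a GENCODE M21 identifier (GRCm38), used for positions. The cells and gene lists were chosen with earlier results of these data known.

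Counts were summed per library over the gated cells (896738 to 2310518 UMIs), so each library is 1 replicate. Groups were compared with edgeR 4.0.16 (quasi-likelihood test, filterByExpr, TMM, Benjamini-Hochberg adjustment over all genes tested, R 4.3.3); a call is an adjusted p under 0.05, and standard errors come from the F statistic. The class-by-group terms used pericyte, smooth muscle and alveolar fibroblast sums with the library as block. Shares of cells were compared by exact two-sided permutation tests. For shares of cells with a UMI, cells were thinned to 5000 UMIs, and at most 400 cells per library were used for other classes. Tested on simulated data of the pericyte comparison with 9938 genes, the fit recovered 68.4% of 2-fold and 95.8% of 4-fold changes, with 11 false calls. The simulation gave every gene the same spread between libraries and left out genes with few UMIs. These rates therefore do not hold for real genes with a wider spread. Other steps used Python 3.11.15, with matplotlib 3.10.9 for figures, scipy 1.17.1 for permutation tests and pandas 2.3.3 and numpy 2.4.6 for tables.

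Named genes were the 5 markers and the toxin-related genes, all called genes, the 20 genes with the smallest p among those without overlap, the 4 most abundant genes and the calls of each list, and the 20 leading genes. Replicates of a group differed by more than counting noise (chi-square per degree of freedom 3.34 to 4.00). The alternatives were RLE size factors, library size alone, DESeq2 1.42.0, no filter, the replicate number as block, each library left out, other limits of the cell rule, thinning, at most 5% mitochondrial UMIs, equal cells per library (47) and leaving out shared barcodes. Alternatives without Pdgfra and with at least 10 UMIs of Cox4i2 and Higd1b were chosen after seeing the data. So were those with fewer than 10 Acta2 UMIs before thinning and per 100 capillary cells. Some single genes are not reported here.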

Additional observations from a re-analysis of the deposited data

How the results depend on the processing

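The p16-DTR share of pericytes stayed below the control share in all 15 alternatives (difference -0.70 to -0.44 percentage points). Per 100 Cdh5-positive cells it did so in all 15 (-1.57 to -1.06), without overlap between groups in any of them. The alternatives without 1 library or with the replicate block could not overlap, since the groups did not overlap with all libraries. Without any single p16-DTR library the exact permutation p of the share was 0.2. Per 100 general capillary cells, a denominator chosen after seeing the data, the difference was -2.10, also without overlap. For the share and per 100 Cdh5-positive cells, the exact permutation p with the replicate number as block was 0.25, the smallest it allows. The number of called genes, 2 in edgeR, was 0 with library size alone, 14 with DESeq2, 150 without a filter (of 18144 genes, 66 higher and 84 lower) and 1 with the replicate block (neither Flt1 nor Negr1, adjusted p = 0.0847). Without 1 library it was 0 to 1, the 1 being Dcn in the fit without control replicate 1. It was 0 without upper limits on Cdh5, Ptprc and Epcam, 0 with 1 UMI of Cox4i2 and Higd1b and 0 with at most 5% mitochondrial UMIs. With equal cells it was 1, again Dcn and neither Flt1 nor Negr1 (edgeR adjusted p = 0.358 and 0.503). It was 0 without shared barcodes. In alternatives chosen after seeing the data it was 3 without Pdgfra and 4 with at least 10 UMIs of the pair. Flt1 was called in 7 and Negr1 in 8 of 21 alternatives; the cause was not tested, beyond fewer samples or cells in some. The 20 uncalled genes kept their direction in 409 of 409 fits. They were chosen for groups without overlap, so fits without 1 library could hardly turn them, and the count is no support. Genes whose effect differed from smooth muscle numbered 128 without a filter and 0 to 4 without 1 library; from fibroblasts, 114 without a filter and 0 to 1.

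Small differences changed direction. Over the fits without 1 library, the log2 fold change ranged from -0.00892 to 0.15 for Cox4i2, -0.0727 to 0.12 for Higd1b, -0.0331 to 0.0816 for Pdgfrb and -0.76 to 0.67 for Cdkn1a. Hbegf ranged from -0.0698 to 0.25, and Lpl ranged from -0.0492 to 0.84. Without the upper limits Higd1b was at -0.00704 and Pdgfrb at -0.0116, with the rule applied after thinning at -0.0316 and -0.0331, and Pdgfrb at -0.0116 with at least 10 UMIs of the pair. Cdkn1a was at -0.43 with equal cells and Lpl at -0.35 with 1 UMI of the pair. The alternative without any Pdgfra or Myh11 UMI was not run, since nearly every pericyte held a Myh11 UMI. Same-numbered libraries had deviations from their group means that correlated at 0.12, -0.0048 and 0.11 across genes, so the numbers were not taken to pair the libraries.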
